A study of Rattus norvegicus with 16 samples.

Results

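Cytochromes P450 are heme enzymes that insert 1 atom of molecular oxygen into steroids, bile acid precursors, fatty acids, vitamins and drugs. The microsomal forms draw their electrons from NADPH through cytochrome P450 oxidoreductase, encoded by Por, and the mitochondrial forms through ferredoxin. Liver carries more P450 than other organs, and in male rats part of it consists of steroid hydroxylases whose expression follows the pulses of growth hormone. The genes described here are the 48 with a symbol that begins with Cyp and a digit, together with Por, that had a row of their own with 1 gene symbol in the array's annotation. They make 49 of the 13222 genes with such a row, and each was read from 1 row. Another 14 rows that name a P450 list several symbols and were left out, so Cyp2a2, Cyp2b2, Cyp2c6, Cyp2d1, Cyp4a2 and Cyp4a3, among others, are not described. The row of Cyp4a1 lists that symbol for 2 gene IDs and was kept.

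The livers came from 16 male Sprague Dawley rats, 4 in each of 4 groups, and the RNA of each animal was read on an exon array of its own (Affymetrix Rat Exon 1.0 ST). The groups were fed rats, rats fasted until phase 2 of the fast (P2), rats fasted until phase 3 (P3), and rats that reached phase 3 and were then re-fed for 2 days (P3r2). In the usual physiological terms phase 2 is the long stage in which fat is burnt and protein is spared, and phase 3 the late stage in which protein breakdown increases. The study's title asks about oxidative stress and the partitioning of fuels in the fasting liver. Rats had been assigned to groups at random, and the sources used here do not give their age or the lengths of the fasts. Values are log2 signals, so a difference of 1 is a doubling, and levels are set only against the same gene's row. Differences are given ± SE from 1 limma fit over the 16 arrays. A gene is said to have risen, fallen or changed where its p, adjusted over all 13947 annotated rows by the Benjamini-Hochberg method, was below 0.05.

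Correlations between arrays were 0.964 to 0.994 inside a group and 0.899 to 0.986 across groups, and array medians lay between 4.93 and 5.17. The spread of values over rows was narrowest in fed 2, P2 4 and P3 3, with SDs of 2.16, 2.18 and 2.22, against up to 2.39 in the other arrays. The mean of the 4 measured hepatocyte markers stayed at 12.2 to 12.7 on every array. Ttr, which encodes transthyretin and is one of these 4, fell by 0.80 ± 0.10 in P3 against fed livers. Cholangiocyte, Kupffer cell, erythroid and adrenal cortex markers had 3 of 5, 4 of 5, 1 of 4 and 2 of 5 members measured, and none of them changed in P3 against fed livers. No endothelial marker had a row of its own. Of 5 stellate cell markers, Dcn rose by 3.80 ± 0.39 in P3 against fed livers while Lrat and Pdgfrb fell, and the mean of the list was 7.04 to 7.85 in P3 livers against 6.56 to 7.37 in fed livers. The mean of 5 periportal markers was 11.2 to 11.3 in P3 livers against 9.88 to 10.3 in fed livers, with 4 of them higher and 1 lower by the test. The mean of the 4 measured pericentral markers was 8.35 to 8.70 in P3 livers against 7.37 to 8.28 in fed livers, with 2 higher and 2 lower. The part of these markers in the results that follow was not tested. Because whole liver was measured, fewer cells of a type and less RNA per cell cannot be told apart.

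Of the 49 members, 30 changed over the 4 groups by the F test, against a background of 41.6% of all rows tested. Of the 34 members with a mean at or above the median of all rows, 5.10, 29 passed, and of the 15 dimmer ones 1 did, Cyp1a1. The shares of all brighter rows and of all dimmer rows that passed were not computed, so these counts have no background of their own. In P2 against fed livers 6 members rose (background 8.05%) and 4 fell (background 9.15%). In P3 against fed livers 10 rose (background 15.0%) and 19 fell (background 10.7%), and in P3 against P2 livers 7 rose (background 18.1%) and 19 fell (background 11.1%). After re-feeding, 14 members rose (background 14.0%) and 7 fell (background 10.6%) in P3r2 against P3 livers. Only Por, Cyp1a1 and Cyp2j4 rose (background 3.61%) and 0 fell (background 0.760%) in P3r2 against fed livers. At an unadjusted p under 0.05 in the same limma test, 7 members were higher there and 3, Cyp2t1, Cyp2u1 and Cyp3a18, were lower. The share of all rows at that unadjusted threshold was not computed. The median difference over the 49 members was -0.05 in P3 against fed livers, with 0.04 over all rows tested. These comparisons share arrays, and each is given with its own values.

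**Figure D1:**
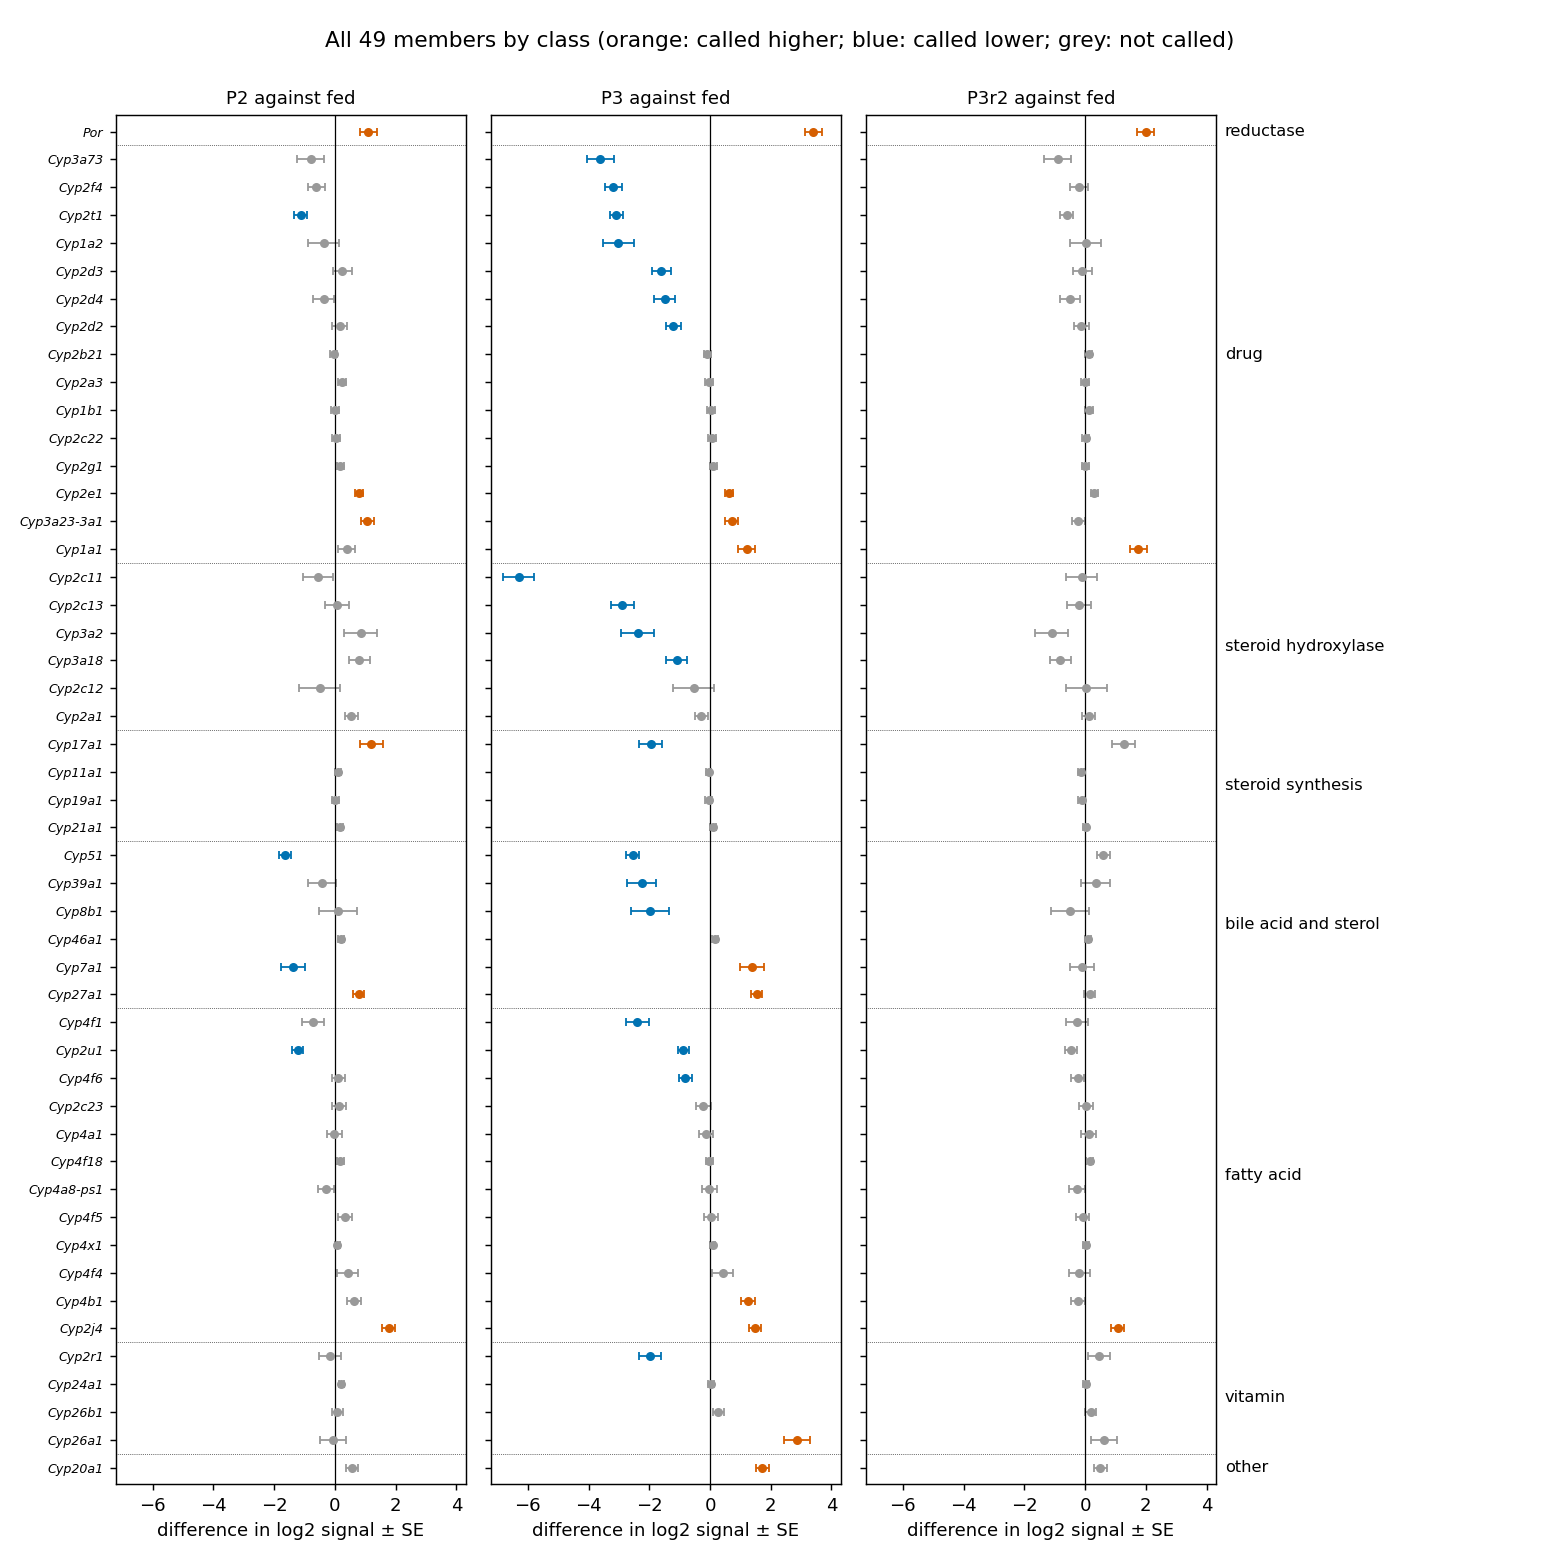
Difference in log2 signal from fed livers (x axis, ± SE) of each of the 49 members (rows, by class) in P2, P3 and P3r2 livers, with members that rose in orange, members that fell in blue and the others in grey. Of the 6 steroid hydroxylases, whose median is -1.74 in P3 against fed livers, 4 fell there (background 10.7%). The others, Cyp2a1 (-0.28) and Cyp2c12 (-0.54), did not pass the test. Por stands at 3.40.

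Por, the electron donor shared by all microsomal P450s, had the largest rise of any member in P3 against fed livers. Its log2 signals were 8.80, 8.61, 9.16 and 8.84 in fed livers, 10.75, 10.32, 9.95 and 8.79 in P2 livers, 12.35, 12.20, 12.16 and 12.29 in P3 livers, and 10.71, 10.95, 10.78 and 10.96 in P3r2 livers. The 4 P3 arrays lay close together and above every other array, whereas the P2 arrays were spread, with P2 4 inside the fed range. The difference was 3.40 ± 0.29 in P3 against fed livers, which is 10.5-fold (adjusted p = 5e-07). It was 2.29 ± 0.29 in P3 against P2 livers (adjusted p = 2.9e-05) and 1.104 ± 0.29 in P2 against fed livers (adjusted p = 0.017), a call that was lost without P2 2 (0.98, adjusted p = 0.055). Re-feeding was followed by a difference of -1.399 ± 0.29 in P3r2 against P3 livers, and it was still 4-fold higher in P3r2 than in fed livers, with no overlap (2.00 ± 0.29, adjusted p = 0.0013).

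None of the other electron carriers on the list of partners rose with Por in P3 against fed livers. This list of 42 genes holds redox partners, heme synthesis and breakdown, receptors and transcription factors, the growth hormone receptor and epoxide hydrolases. Of the 36 measured, 3 rose (background 15.0%) and 12 fell (background 10.7%) in P3 against fed livers. In P3 against P2 livers 7 rose (background 18.1%) and 18 fell (background 11.1%). All 6 redox partners fell in P3 against P2 livers and 4 of 6 in P3 against fed livers. Cyb5a encodes cytochrome b5, which passes the second electron to several P450s. Its signals were 11.56, 10.80, 11.86 and 11.82 in fed livers, 12.39, 12.40, 12.31 and 12.31 in P2 livers, 11.74, 11.93, 11.44 and 11.52 in P3 livers, and 11.62, 11.73, 11.66 and 11.74 in P3r2 livers. It was highest in P2, without overlap, and its difference in P3 against fed livers was 0.15 ± 0.18 (adjusted p = 0.66). Cyb5r3, the reductase of cytochrome b5, read 8.83, 9.02, 7.05 and 8.19 in P3 livers against 10.75, 10.38, 10.81 and 10.47 in fed livers, and fell by 2.33 ± 0.32 (adjusted p = 5.3e-05). The 2 reductases moved in opposite directions on the same arrays. Pgrmc1 and Pgrmc2, heme-binding membrane proteins that associate with P450s, fell by 1.42 ± 0.12 and 1.63 ± 0.15 in P3 against fed livers. Fdx1, the ferredoxin of mitochondrial P450s, was 1.32 ± 0.22 higher in P2 than in fed livers (adjusted p = 0.0016) and 0.11 ± 0.22 higher in P3 than in fed livers (adjusted p = 0.82).

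**Figure D2:**
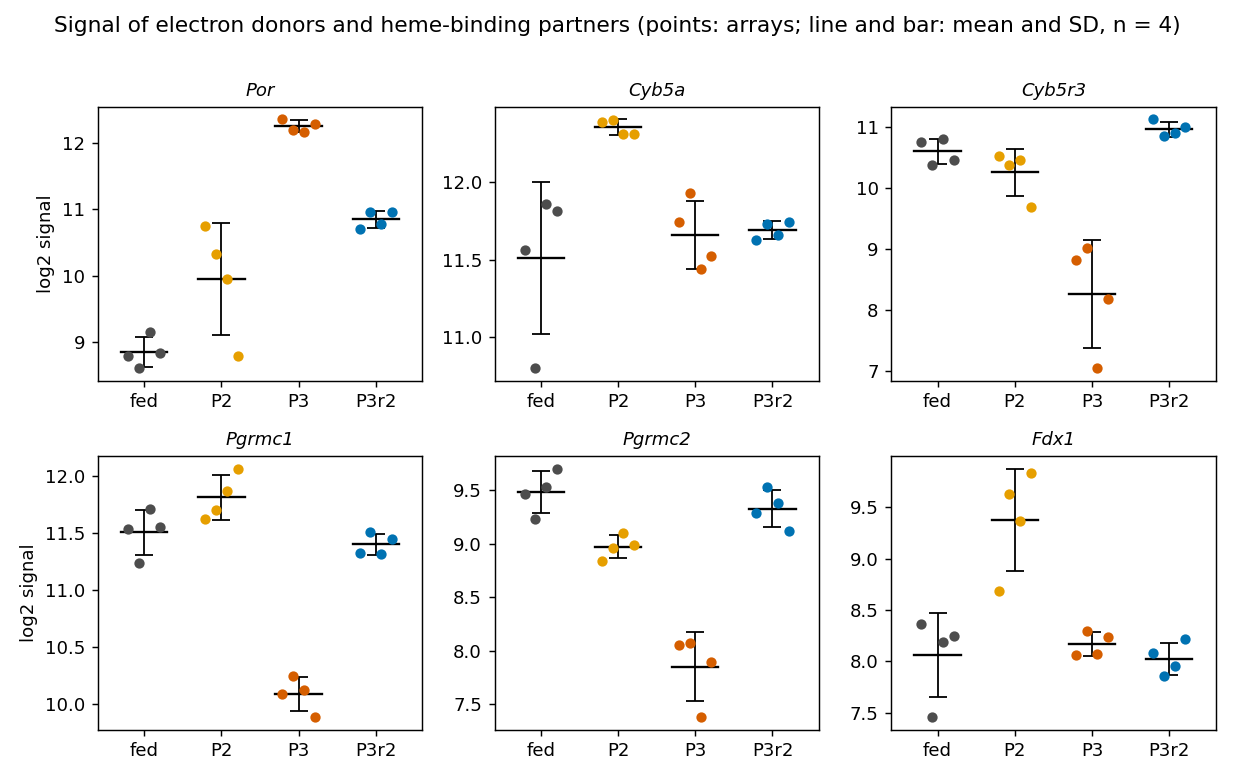
Log2 signal of Por and of 5 redox and heme-binding partners in the 4 groups, where points are arrays and the line and bar are the mean and SD of 4. Por is highest in P3, while Cyb5r3, Pgrmc1 and Pgrmc2 are lowest there and Cyb5a and Fdx1 peak in P2.

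Alad, the enzyme that makes porphobilinogen, read 6.14, 6.63, 6.38 and 6.33 in P3 livers against 8.05, 7.67, 7.99 and 7.85 in fed livers, and fell by 1.52 ± 0.12 (adjusted p = 3.1e-07). Ppox, which acts late in the same pathway, fell by 1.00 ± 0.14 in P3 against fed livers. Of the 5 measured heme synthesis genes 4 fell in P3 against P2 livers (background 11.1%), and all 5 rose in P3r2 against P3 livers (background 14.0%). Hmox1, which breaks heme down, read 8.61, 8.49, 10.64 and 10.12 in P3 livers against 6.93, 6.18, 7.18 and 7.09 in fed livers, and rose by 2.62 ± 0.41 (adjusted p = 0.00016). Array P3 3, which had the lowest signals of many P450s, also had the highest Hmox1 signal of its group. Ephx1, the microsomal hydrolase of epoxides that P450s form, fell by 2.13 ± 0.16 in P3 against fed livers and was 2.27 ± 0.16 higher in P3r2 than in P3 livers.

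Among the 6 steroid hydroxylases none changed in P2 against fed livers (background 8.05% higher and 9.15% lower). In P3 livers 4 fell against fed livers (background 10.7%) and 5 fell against P2 livers (background 11.1%). The medians of these 3 comparisons were 0.30, -1.74 and -2.42. Cyp2c11, the main male-specific testosterone hydroxylase of rat liver, moved most. Log2 signals were 12.34, 11.88, 12.40 and 12.36 in fed livers, 12.26, 11.62, 11.57 and 11.28 in P2 livers, 7.49, 6.60, 4.00 and 5.71 in P3 livers, and 12.13, 12.40, 11.79 and 12.23 in P3r2 livers. All 4 P3 arrays lay below all 12 others, and P3 3, at 4.00, was under the median of all rows. The difference was -6.30 ± 0.50 in P3 against fed livers (adjusted p = 3e-07). After re-feeding the arrays overlapped the fed range, with 6.19 ± 0.50 in P3r2 against P3 livers (adjusted p = 3.4e-07) and -0.11 ± 0.50 in P3r2 against fed livers (adjusted p = 0.96).

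Cyp2c13, a second male-specific member of this family, was also lowest in P3 livers. It read 11.82, 11.44, 11.86 and 12.04 in fed livers, 12.04, 11.80, 11.62 and 11.92 in P2 livers, 9.66, 9.87, 7.28 and 8.80 in P3 livers, and 11.62, 11.70, 11.44 and 11.56 in P3r2 livers. P2 livers overlapped fed livers, and P3 livers did not. The difference was -2.88 ± 0.39 in P3 against fed livers (adjusted p = 4.7e-05) and 2.67 ± 0.39 in P3r2 against P3 livers (adjusted p = 1e-04). Cyp2c12, the female-specific relative, varied as much within groups as between them, from 8.04 to 10.82 in P2 livers and from 7.68 to 11.19 in P3 livers, against 9.43 to 10.60 in fed livers. It changed in none of the 5 comparisons (SE 0.67). Cyp2c, Cyp2d, Cyp3a, Cyp4a and Cyp4f genes have near-identical relatives, and how far a row also takes up transcripts of a relative was not tested.

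Ghr, the receptor of the hormone that sets the male pattern of these genes, read 8.13, 7.97, 6.66 and 7.37 in P3 livers against 10.98, 10.34, 11.03 and 10.86 in fed livers. It fell by 3.27 ± 0.25 (adjusted p = 1.8e-07) and was 0.07 ± 0.25 higher in P3r2 than in fed livers (adjusted p = 0.95). Stat5b carries the growth hormone signal to male-specific genes in mouse and rat liver. It was 1.07 ± 0.26 lower in P2 than in fed livers (adjusted p = 0.013). In that comparison Ghr (-0.27 ± 0.25, adjusted p = 0.48) and Cyp2c11 (-0.56 ± 0.50, adjusted p = 0.46) did not pass the test. Stat5b did not fall further in P3 against P2 livers (0.23 ± 0.26, adjusted p = 0.56). Its P3 difference from fed livers was -0.84 ± 0.26 (adjusted p = 0.026). After re-feeding its arrays all lay below the fed arrays, without passing the test (-0.88 ± 0.26, adjusted p = 0.071), whereas Ghr and Cyp2c11 overlapped the fed range. The part of Stat5b in the Cyp2c11 values was not tested. Bcl6, a repressor that is more active in male mouse liver, was 2.15 ± 0.55 lower in P3r2 than in fed livers (adjusted p = 0.038). Cux2, another transcription factor on the list of partners, read 6.83, 6.23, 5.61 and 5.91 in P3 livers. Its fed signals were 5.19, 5.22, 5.33 and 5.07, without overlap (F test over the 4 groups, adjusted p = 0.0058).

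The promoters of the 2 male-specific Cyp2c genes are shown because the genes moved together. They come from the RefSeq table of build GRCr8, which held 41 of the 49 members, and run from 250 bases before the start to 50 after it. Cyp2c11 lies at chr1:246174966-246175265 on the plus strand and Cyp2c13 at chr1:248787139-248787438 on the minus strand. Each is written 5′ to 3′ along its gene, and capitals mark TATAAA on either strand.
Cyp2c11: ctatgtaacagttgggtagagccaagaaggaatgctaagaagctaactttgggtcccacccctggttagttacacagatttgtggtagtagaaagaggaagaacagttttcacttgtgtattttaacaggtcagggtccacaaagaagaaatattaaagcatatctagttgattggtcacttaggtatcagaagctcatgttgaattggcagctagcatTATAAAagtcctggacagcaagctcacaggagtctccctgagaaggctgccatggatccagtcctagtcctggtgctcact
Cyp2c13: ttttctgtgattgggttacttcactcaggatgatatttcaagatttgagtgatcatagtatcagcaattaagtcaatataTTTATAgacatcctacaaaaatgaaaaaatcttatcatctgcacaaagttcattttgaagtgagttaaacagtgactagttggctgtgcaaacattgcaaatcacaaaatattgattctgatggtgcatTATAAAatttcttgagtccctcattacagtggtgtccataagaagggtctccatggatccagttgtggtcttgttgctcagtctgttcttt
The 2 windows were identical at 174 of 323 aligned positions, 53.9%, a value near the 50.3% of Cyp2c11 against Cyp3a2. TATAAA, the core promoter box, occurred in 14.3% of all 27457 promoters and in 11 of the 41 member promoters. It stood 31 to 26 bases before the Cyp2c11 start.

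Cyp3a2, a male-predominant steroid and drug hydroxylase, read 11.76, 11.17, 11.92 and 12.20 in fed livers, 12.77, 12.52, 12.35 and 12.80 in P2 livers, 10.60, 10.36, 8.06 and 8.48 in P3 livers, and 10.71, 11.02, 9.31 and 11.60 in P3r2 livers. All P2 arrays were above all fed arrays, but the difference did not pass the test (0.85 ± 0.53, adjusted p = 0.29). It fell by 2.38 ± 0.53 in P3 against fed livers (adjusted p = 0.0033) and by 3.23 ± 0.53 in P3 against P2 livers (adjusted p = 0.00031). It did not pass in P3r2 against P3 livers (1.28 ± 0.53, adjusted p = 0.1), and it stood at -1.10 ± 0.53 in P3r2 against fed livers (adjusted p = 0.3).

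Cyp3a18, another male-predominant form, was 10.92, 10.36, 8.88 and 10.36 in P3 livers, against 12.33, 11.72, 11.86 and 12.22 in P2 livers and 11.23, 10.56, 11.62 and 11.53 in fed livers. It fell by 1.90 ± 0.34 in P3 against P2 livers (adjusted p = 0.00064) and by 1.103 ± 0.34 in P3 against fed livers (adjusted p = 0.026). Without P3 3 the second difference was -0.69 (adjusted p = 0.058), and its call was also lost without fed 1, fed 3 or fed 4. Cyp2a1, a testosterone hydroxylase that is higher in females, fell by 0.82 ± 0.21 in P3 against P2 livers (adjusted p = 0.0078), and its difference in P3 against fed livers was -0.28 ± 0.21 (adjusted p = 0.41).

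Cyp3a23-3a1, the drug-inducible member of the Cyp3a subfamily, went the other way from Cyp3a2 and Cyp3a18 in P3 against fed livers only. In P2 against fed livers Cyp3a2 (0.85) and Cyp3a18 (0.80, adjusted p = 0.12) were also higher in the mean, without passing the test. In P3 against P2 livers Cyp3a23-3a1 differed by -0.34 (adjusted p = 0.27). Signals of this gene were 10.996, 10.08, 11.09 and 10.93 in fed livers, 12.08, 11.59, 11.83 and 11.83 in P2 livers, 11.73, 11.55, 11.48 and 11.22 in P3 livers, and 10.26, 10.84, 10.25 and 10.85 in P3r2 livers. Both fasted groups were above the fed group without overlap. The differences were 1.06 ± 0.21 in P2 against fed livers (adjusted p = 0.0046), 0.72 ± 0.21 in P3 against fed livers (adjusted p = 0.02) and -0.95 ± 0.21 in P3r2 against P3 livers (adjusted p = 0.0038). In P3 against fed livers the call was lost without fed 2 (0.49, adjusted p = 0.052) or without P3 1 (0.64, adjusted p = 0.06).

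The promoters of Cyp3a2 and Cyp3a23-3a1 are shown because these related genes moved in opposite directions in P3 against fed livers. Cyp3a2 lies at chr12:14343808-14344107 and Cyp3a23-3a1 at chr12:14398754-14399053, both on the minus strand. The first run of capitals is a direct repeat of AGTTCA spaced by 3 bases, on the opposite strand, of the type bound by the pregnane X receptor, and the other is CAAAGTCCA, a site type bound by HNF4.
Cyp3a2: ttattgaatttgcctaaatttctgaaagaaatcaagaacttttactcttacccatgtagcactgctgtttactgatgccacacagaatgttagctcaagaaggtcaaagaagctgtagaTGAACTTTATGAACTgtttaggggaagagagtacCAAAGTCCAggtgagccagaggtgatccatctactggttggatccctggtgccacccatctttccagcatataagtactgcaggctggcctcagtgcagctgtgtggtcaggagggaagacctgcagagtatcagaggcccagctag
Cyp3a23-3a1: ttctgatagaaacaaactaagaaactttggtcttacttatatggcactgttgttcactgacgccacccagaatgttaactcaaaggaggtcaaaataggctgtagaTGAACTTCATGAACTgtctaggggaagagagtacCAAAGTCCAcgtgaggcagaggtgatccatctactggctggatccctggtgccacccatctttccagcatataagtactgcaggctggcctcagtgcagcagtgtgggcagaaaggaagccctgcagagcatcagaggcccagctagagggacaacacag
These windows were identical at 254 of 315 aligned positions, 80.6%, and both hold both motifs. The repeat, searched on both strands, occurred in 2 of 27457 promoters (0.00728%), which are these 2, and CAAAGTCCA in 103 (0.375%). In Cyp3a23-3a1 the repeat lies 144 to 130 bases and in Cyp3a2 131 to 117 bases before the start. The motifs were picked from textbook knowledge of these genes, and a match in letters is not a measurement of binding. Nr1i2, the pregnane X receptor, differed by 0.48 ± 0.20 in P3 against fed livers (adjusted p = 0.1) and was 0.77 ± 0.20 higher in P3r2 than in fed livers (adjusted p = 0.046). Hnf4a differed by 0.00 ± 0.17 in P3 against fed livers (adjusted p = 0.99). Nr1i3, another nuclear receptor on the list of partners, differed by 1.59 ± 0.53 in P2 against fed livers, without overlap (adjusted p = 0.051). In P3 against fed livers it differed by -1.01 ± 0.53 (adjusted p = 0.2). Its mean was 9.08 in P2 and 6.48 in P3 livers, and the arrays of these groups did not overlap.

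**Figure D3:**
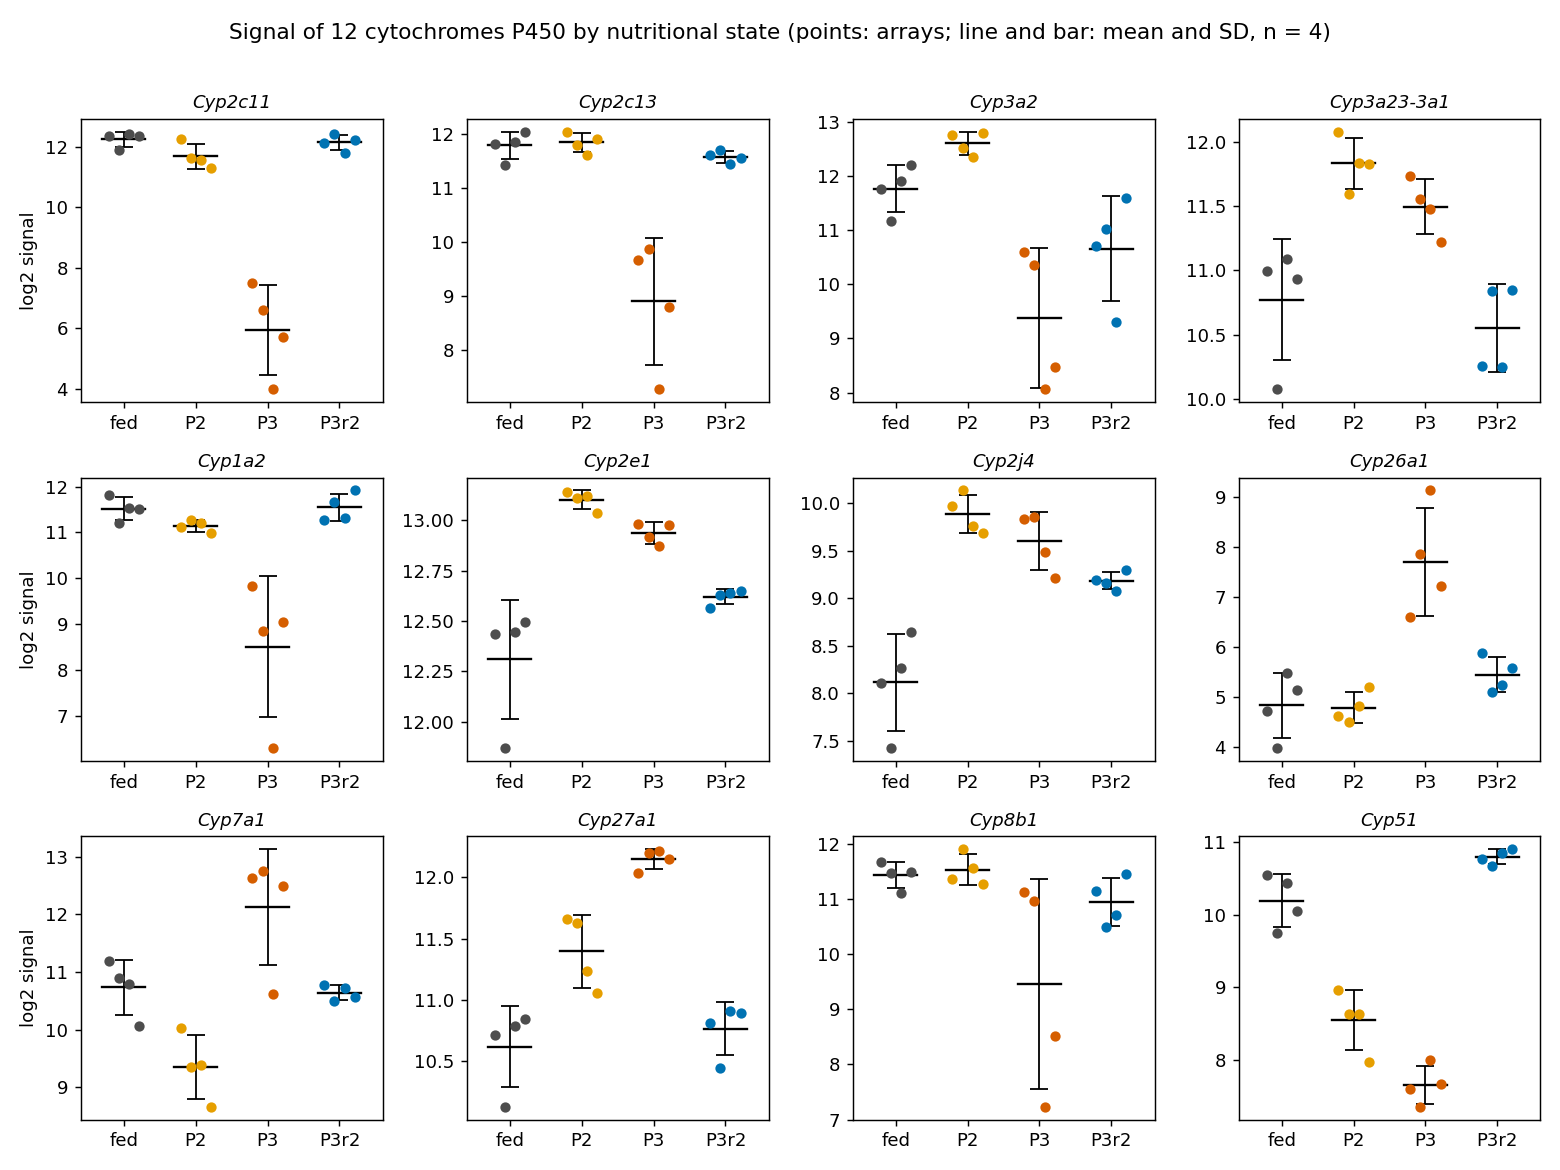
Log2 signal (y axis) of 12 P450 genes in the 4 groups, where points are arrays and the line and bar are the mean and SD of 4. Cyp2c11 lies at 4.00 to 7.49 in P3 and at 11.28 or more elsewhere, and Cyp26a1 is above all other arrays in P3.

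Of the 15 members grouped as drug-metabolizing, 3 rose (background 15.0%) and 7 fell (background 10.7%) in P3 against fed livers. In P3r2 against P3 livers 7 rose (background 14.0%) and 1 fell (background 10.6%). Cyp1a2, which oxidizes caffeine and aromatic amines, read 11.83, 11.20, 11.53 and 11.52 in fed livers, 11.12, 11.27, 11.21 and 10.98 in P2 livers, 9.84, 8.84, 6.29 and 9.04 in P3 livers, and 11.27, 11.67, 11.32 and 11.92 in P3r2 livers. P3 livers lay below all others, by 3.02 ± 0.51 against fed livers (adjusted p = 0.00031). Cyp1a1, its relative that is low in untreated liver and is induced through the aryl hydrocarbon receptor, moved in the opposite direction. It read 4.13, 3.86, 3.85 and 3.85 in fed livers, 4.41, 4.48, 4.03 and 4.33 in P2 livers, 5.18, 5.85, 4.22 and 5.26 in P3 livers, and 5.86, 5.41, 5.17 and 6.26 in P3r2 livers. P3 and P3r2 livers were each above fed livers without overlap, by 1.21 ± 0.28 (adjusted p = 0.0042) and 1.75 ± 0.28 (adjusted p = 0.0026). All fed signals of Cyp1a1 lay below the median of all rows, where an array can understate a fold. Cyp1b1, the third member of the family, stayed between 3.56 and 4.22 on all arrays, and Ahr, their receptor, differed by -0.14 ± 0.43 in P3 against fed livers (adjusted p = 0.88).

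Cyp2e1, which oxidizes ethanol and the ketone acetone, rose in both stages of the fast. The arrays read 12.43, 11.87, 12.44 and 12.49 in fed livers, 13.14, 13.11, 13.12 and 13.03 in P2 livers, 12.98, 12.91, 12.87 and 12.98 in P3 livers, and 12.56, 12.63, 12.64 and 12.65 in P3r2 livers. The groups did not overlap, and the differences were 0.79 ± 0.12 in P2 against fed livers (adjusted p = 0.00067) and 0.63 ± 0.12 in P3 against fed livers (adjusted p = 0.00076). These signals are near the upper end of the array's range, where differences can come out too small.

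Cyp2f4, the rat naphthalene-oxidizing form, read 8.78, 8.63, 8.83 and 8.95 in fed livers, 8.19, 8.16, 8.24 and 8.15 in P2 livers, 5.70, 6.80, 5.04 and 4.91 in P3 livers, and 8.57, 8.63, 8.75 and 8.47 in P3r2 livers. P2 livers were already below fed livers on every array, without passing the test (-0.61 ± 0.29, adjusted p = 0.15), and P3 livers fell by 3.19 ± 0.29 against fed livers (adjusted p = 8.9e-07). Cyp2t1 stepped down at each stage, with 9.52, 8.79, 9.37 and 9.37 in fed livers, 8.04, 8.28, 8.38 and 7.80 in P2 livers, 6.28, 6.70, 5.71 and 6.03 in P3 livers, and 8.61, 8.67, 8.92 and 8.42 in P3r2 livers. It fell by 1.13 ± 0.21 in P2 against fed livers (adjusted p = 0.0025) and by 3.08 ± 0.21 in P3 against fed livers (adjusted p = 4.7e-08). Cyp3a73 fell by 3.61 ± 0.45 in P3 against fed livers (adjusted p = 1.9e-05), with 6.29, 6.36, 3.77 and 4.97 in P3 livers against 8.67, 8.89, 8.44 and 9.85 in fed livers.

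The Cyp2d genes, whose enzymes oxidize many amine drugs, fell as well. In P3 against fed livers Cyp2d2 fell by 1.21 ± 0.25, Cyp2d3 by 1.61 ± 0.32 and Cyp2d4 by 1.496 ± 0.34, and all 3 rose in P3r2 against P3 livers. Cyp2c22 passed no test and ranged from 12.19 to 12.85 over the 16 arrays, with a difference of 0.07 ± 0.12 in P3 against fed livers (adjusted p = 0.79). Its signals, like those of Cyp2e1, are near the upper end of the array's range, where differences can come out too small. Cyp2a3, Cyp2b21 and Cyp2g1 stayed at 3.69 or below on every array and passed no test.

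Of the 6 bile acid and sterol enzymes 2 rose (background 15.0%) and 3 fell (background 10.7%) in P3 against fed livers. Cyp7a1, the rate-limiting enzyme of the classical pathway of bile acid synthesis, fell in P2 and rose in P3 against fed livers. It read 11.19, 10.89, 10.79 and 10.07 in fed livers, 10.03, 9.35, 9.38 and 8.66 in P2 livers, 12.63, 12.76, 10.63 and 12.49 in P3 livers, and 10.77, 10.50, 10.72 and 10.56 in P3r2 livers. P2 livers did not overlap fed livers, whereas P3 3 lay inside the fed range. The differences were -1.38 ± 0.40 in P2 against fed livers (adjusted p = 0.029), 1.39 ± 0.40 in P3 against fed livers (adjusted p = 0.017) and 2.77 ± 0.40 in P3 against P2 livers (adjusted p = 1e-04). Both calls against fed livers depended on single arrays. The first was lost without fed 1, fed 2, fed 3, P2 2 or P2 4, with an adjusted p of up to 0.099 (-1.15 without P2 4). The second was lost without fed 4, P3 1, P3 2 or P3 4 (1.17 without fed 4, adjusted p = 0.059).

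Cyp27a1, the mitochondrial sterol hydroxylase that opens the alternative pathway, rose stepwise. It read 10.71, 10.13, 10.78 and 10.84 in fed livers, 11.66, 11.63, 11.23 and 11.06 in P2 livers, 12.04, 12.20, 12.21 and 12.15 in P3 livers, and 10.81, 10.45, 10.91 and 10.90 in P3r2 livers. The P3 arrays lay close together and above all others. The rise was 0.78 ± 0.17 in P2 against fed livers (adjusted p = 0.0071) and 1.53 ± 0.17 in P3 against fed livers (adjusted p = 7.3e-06).

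Cyp8b1, which commits the pathway to cholic acid, read 11.12, 10.96, 7.23 and 8.51 in P3 livers, against 11.36, 11.90, 11.57 and 11.27 in P2 livers and 11.66, 11.47, 11.11 and 11.48 in fed livers. Only 2 of the 4 P3 arrays were far below the others, and P3 1 lay inside the fed range. The fall of 1.97 ± 0.63 in P3 against fed livers (adjusted p = 0.029) was -1.23 without P3 3 (adjusted p = 0.072), and that in P3 against P2 livers was -1.32 without P3 3 (adjusted p = 0.043), against -2.07 with it. The call against fed livers was also lost without fed 1, fed 2, fed 4 or P3 4, and that against P2 livers without P2 2 or P3 4. Cyp39a1, an oxysterol hydroxylase, fell by 2.25 ± 0.47 in P3 against fed livers (adjusted p = 0.0021), with 7.80, 8.01, 5.11 and 6.85 in P3 livers against 9.24, 8.54, 9.51 and 9.47 in fed livers. In P3 against P2 livers it fell by 1.82, and by 1.21 without P3 3 (adjusted p = 0.0074).

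Cyp51, the lanosterol demethylase of cholesterol synthesis, fell at each stage of the fast. Its signals were 10.55, 9.75, 10.44 and 10.05 in fed livers, 8.96, 8.64, 8.63 and 7.97 in P2 livers, 7.60, 7.35, 7.997 and 7.66 in P3 livers, and 10.76, 10.68, 10.86 and 10.91 in P3r2 livers. The differences were -1.65 ± 0.21 in P2 against fed livers (adjusted p = 0.00021), -2.55 ± 0.21 in P3 against fed livers (adjusted p = 3.6e-07) and 3.15 ± 0.21 in P3r2 against P3 livers (adjusted p = 3.2e-08). Every P3r2 array was above every fed array, without passing the test (0.60 ± 0.21, adjusted p = 0.12). Srebf2, the transcription factor of the sterol synthesis genes, fell by 1.09 ± 0.23 in P2 and by 1.201 ± 0.23 in P3 against fed livers, and rose by 1.32 ± 0.23 in P3r2 against P3 livers. Cyp46a1, the sixth gene of the class and mainly a brain enzyme, stayed between 3.98 and 4.53.

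Nr5a2, the nuclear receptor that activates Cyp7a1 and Cyp8b1, read 10.15, 9.63, 9.53 and 10.39 in P3 livers against 8.75, 8.36, 8.61 and 8.81 in fed livers, and rose by 1.29 ± 0.22 (adjusted p = 0.00039). Nr0b2, their repressor, fell by 1.48 ± 0.50 in P3 against P2 livers with overlap (adjusted p = 0.037), and differed by -0.44 ± 0.50 in P3 against fed livers (adjusted p = 0.63). Nr1h4, the bile acid receptor, differed by 0.27 ± 0.18 in P3 against fed livers (adjusted p = 0.34). Nr1h3, another nuclear receptor on the list of partners, went the other way from Nr5a2. It read 9.07, 9.28, 8.16 and 8.74 in P3 livers against 10.04, 9.60, 10.28 and 10.26 in fed livers, without overlap. By the F test over the 4 groups its adjusted p was 3.7e-05. The part of these receptors in the P450 values was not tested.

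In the fatty acid class, 2 of 12 members rose (background 15.0%) and 3 fell (background 10.7%) in P3 against fed livers. Cyp2j4, of the arachidonic acid epoxygenases, had the largest rise of any member in P2 against fed livers. It read 8.11, 7.42, 8.27 and 8.65 in fed livers, 9.97, 10.13, 9.76 and 9.69 in P2 livers, 9.83, 9.85, 9.49 and 9.21 in P3 livers, and 9.19, 9.16, 9.08 and 9.30 in P3r2 livers. All 12 arrays of the 3 other groups were above all fed arrays. The differences from fed livers were 1.77 ± 0.21 in P2 (adjusted p = 0.00013), 1.48 ± 0.21 in P3 (adjusted p = 7.2e-05) and 1.07 ± 0.21 in P3r2 (adjusted p = 0.0095). With Por it was 1 of 2 members that were higher in all 3 groups.

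Cyp4a1, the omega-hydroxylase that is a standard target of PPAR-alpha in rat liver, passed no test. Its signals were 9.17, 9.13, 9.24 and 9.14 in fed livers, 9.29, 8.98, 9.41 and 8.89 in P2 livers, 9.72, 8.35, 8.54 and 9.55 in P3 livers, and 9.45, 9.19, 9.20 and 9.33 in P3r2 livers. In the P3 group 2 arrays lay above the fed range and the other 2 below it. The difference was -0.03 ± 0.24 in P2 and -0.13 ± 0.24 in P3 against fed livers. Ppara itself rose by 1.29 ± 0.29 in P3 against P2 livers (adjusted p = 0.0036) and differed by 0.81 ± 0.29 in P3 against fed livers (adjusted p = 0.056).

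Cyp4b1, which oxidizes fatty acids and foreign compounds, read 7.495, 8.17, 7.42 and 8.41 in P3 livers against 6.20, 6.36, 7.04 and 6.86 in fed livers, and rose by 1.26 ± 0.23 (adjusted p = 7e-04). Cyp4f1, an omega-hydroxylase of leukotrienes and fatty acids, fell by 2.39 ± 0.37 (adjusted p = 0.00016), with 10.34, 10.15, 8.10 and 8.75 in P3 livers against 11.77, 11.56, 11.73 and 11.85 in fed livers. These 2 Cyp4 genes moved in opposite directions, each without overlap. Cyp2u1, a fatty acid hydroxylase that read 5.44, 5.58, 5.01 and 4.84 in P2 livers against 6.21, 6.05, 6.80 and 6.71 in fed livers, fell by 1.23 ± 0.19 in P2 (adjusted p = 0.00087) and by 0.88 ± 0.19 in P3 (adjusted p = 0.0025) against fed livers. Cyp4f6 fell by 0.81 ± 0.22 in P3 against fed livers (adjusted p = 0.01), while Cyp4f4 (0.41 ± 0.34) and the epoxygenase Cyp2c23 (-0.22 ± 0.24) did not pass. Cyp4a8-ps1, Cyp4f5, Cyp4f18 and Cyp4x1 stayed at 4.41 or below on every array and passed no test.

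Of the vitamin enzymes, Cyp26a1 and Cyp2r1 moved in opposite directions. Cyp26a1, which degrades retinoic acid, read 4.72, 3.98, 5.47 and 5.14 in fed livers, 4.62, 4.496, 4.81 and 5.20 in P2 livers, 6.60, 7.87, 9.13 and 7.21 in P3 livers, and 5.87, 5.09, 5.25 and 5.58 in P3r2 livers. All P3 arrays were above all others, and here P3 3 was the highest array of its group. The rise was 2.88 ± 0.43 in P3 against fed livers (adjusted p = 0.00011) and 2.92 ± 0.43 in P3 against P2 livers (adjusted p = 0.00011), and in P3r2 against P3 livers it fell by 2.26 ± 0.43 (adjusted p = 0.00099). Cyp2r1, the main hepatic hydroxylase that activates vitamin D, read 5.69, 5.005, 3.32 and 4.73 in P3 livers against 6.82, 6.17, 6.82 and 6.90 in fed livers, and fell by 1.99 ± 0.36 (adjusted p = 0.00061). In P3r2 against P3 livers it rose by 2.44 ± 0.36 (adjusted p = 0.00011). Cyp24a1 and Cyp26b1 passed no test.

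The Cyp26a1 promoter is shown because its response element for retinoic acid is a textbook feature of this gene. It lies at chr1:244883572-244883871 on the plus strand. Capitals mark, in order, a direct repeat of AGTTCA spaced by 5 bases, on the opposite strand, of the type bound by retinoic acid receptors, and TATAAA.
Cyp26a1: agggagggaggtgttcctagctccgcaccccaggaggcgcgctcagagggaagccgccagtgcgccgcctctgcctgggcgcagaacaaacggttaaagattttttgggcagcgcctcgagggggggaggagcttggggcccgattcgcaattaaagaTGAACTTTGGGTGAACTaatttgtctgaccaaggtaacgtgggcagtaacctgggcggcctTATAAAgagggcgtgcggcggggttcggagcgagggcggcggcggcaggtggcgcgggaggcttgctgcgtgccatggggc
The repeat lies 92 to 76 bases before the start and occurred in 3 of the 27457 promoters (0.0109%), of which Cyp26a1 was the only member. Retinoic acid was not measured here.

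Cyp17a1, which makes androgen precursors in testis, moved in opposite directions at the 2 stages. It read 7.55, 6.55, 7.25 and 8.59 in fed livers, 8.26, 8.24, 9.23 and 8.97 in P2 livers, 5.999, 5.09, 4.94 and 6.08 in P3 livers, and 8.52, 8.66, 9.25 and 8.59 in P3r2 livers. P2 livers overlapped fed livers, and P3 livers were below all others. The rise of 1.19 ± 0.38 in P2 against fed livers (adjusted p = 0.044) was 0.88 without fed 2 (adjusted p = 0.11), and the call was also lost without fed 1, fed 3, P2 2, P2 3, P2 4, P3r2 1, P3r2 2 or P3r2 4. The falls of 1.96 ± 0.38 in P3 against fed livers and 3.15 ± 0.38 in P3 against P2 livers had adjusted p-values of 0.0011 and 2.4e-05. The other steroid synthesis genes Cyp11a1, Cyp19a1 and Cyp21a1, which belong to adrenal and gonad, stayed at 3.41 or below on every array. Cyp20a1, a P450 with no settled substrate, rose by 1.72 ± 0.20 in P3 against fed livers (adjusted p = 1.3e-05), with 8.14, 8.03, 8.81 and 8.40 in P3 livers against 6.71, 5.98, 6.99 and 6.80 in fed livers.

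Signals of the brighter members varied more among the P3 arrays than among those of the other groups. Over the 34 brighter members the fed group had a median SD of 0.345, the P2 group 0.254, the P3 group 0.770 and the P3r2 group 0.129, and P3 had the largest SD for 24 of the 34. Of the 19 members that fell in P3 against fed livers, 16 had their lowest P3 signal on array P3 3. With fed 2, P2 4 and P3 3 all left out, 18 members fell and 9 rose in P3 against fed livers. P3 3 was also the lowest of its group for Cyp7a1 and the highest for Cyp26a1, Cyp20a1 and Hmox1. Over all rows P3 3 had the narrowest spread of its group, with an SD of 2.22 against 2.355, 2.29 and 2.34 on P3 1, P3 2 and P3 4. The spread within groups and the lowest array were not counted over all rows. A trait of the animal and one of the array therefore cannot be told apart. No label sets P3 3 apart from the other P3 animals, and all 4 were kept.

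**Figure D4:**
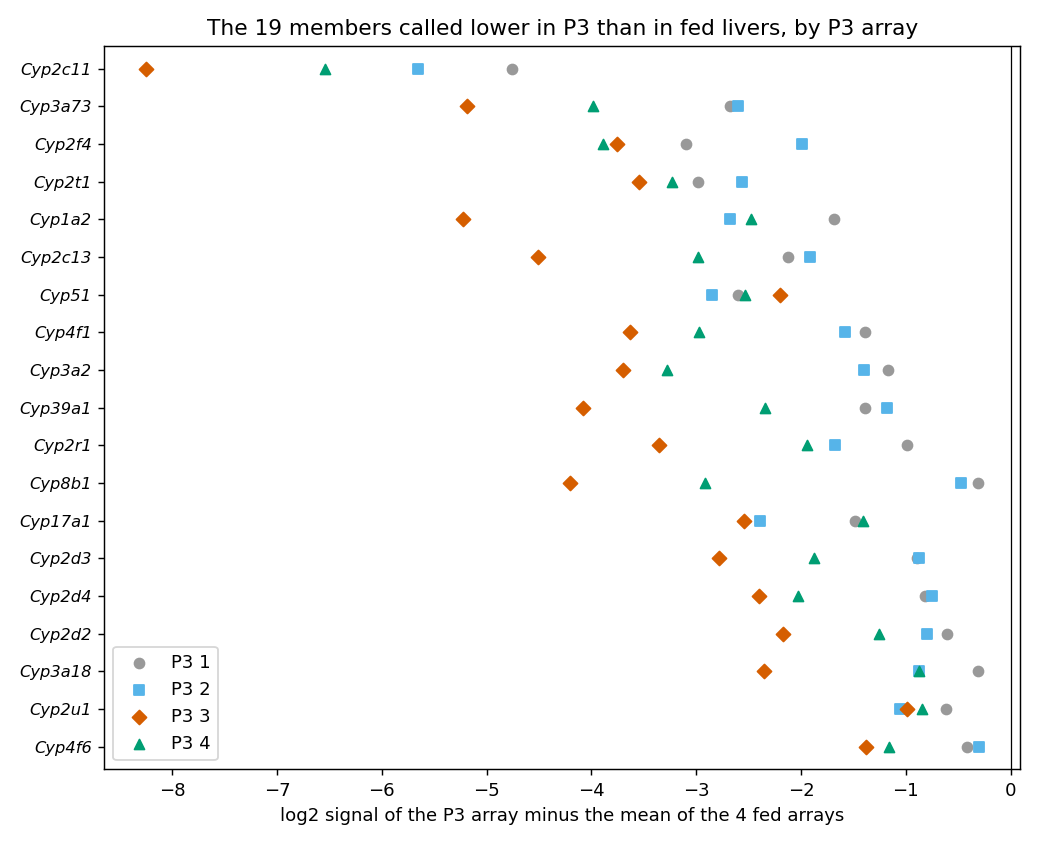
Log2 signal of each of the 19 members that fell in P3 against fed livers, on the 4 P3 arrays, relative to the fed mean. P3 3 is the lowest point for 16 of the 19 members.

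After 2 days of re-feeding 46 of the 49 members did not pass the test against fed livers, and neither did 13338 of all 13947 rows tested. Of the 19 members that fell in P3 against fed livers, 0 differed from fed livers in P3r2 by the test, with differences from -1.10 to 1.27. Of the 10 that rose, 3 were still higher, Por, Cyp2j4 and Cyp1a1, and the differences of the 10 ran from -0.24 to 2.00. The steroid hydroxylases were uneven, since 2 of 6, Cyp2c11 and Cyp2c13, rose in P3r2 against P3 livers (background 14.0%) while Cyp3a2 and Cyp3a18 did not pass. A miss of the threshold with 4 animals a group does not show that levels were equal.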

How the data were processed

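Liver RNA of 16 rats was measured on exon arrays in 4 groups of 4, assigned from the sample labels. The authors deposited 1 table of log2 signals per transcript cluster, made with GCOS 1.4, per the series design text, and Affymetrix software that the submitters' processing notes name as Expression Console 1.1. The sources used here do not give the summarisation, background correction or genome build, and the log2 scale was inferred from the values. Labels' protocols give RNeasy extraction and rRNA depletion.

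The values were used as deposited. Of 19418 rows, 13947 with a gene annotation were tested and 5471 without one were left out. Of those tested, 13335 carry 1 symbol and 612 several. Group means were fitted over all 16 arrays with limma 3.58.1 in R 4.3.3, with 5 contrasts, an F test, two-sided moderated tests and Benjamini-Hochberg adjustment. The number of arrays limits the precision. The fit was tested on simulated data. Members were named as the 6 largest rises and 6 largest falls among calls in each comparison plus a key set of genes. Other members were added by class after their values were seen. Members, lists, motifs and promoters were chosen with earlier results of these data known, and the class pattern was corrected for Cyp20a1 after the table was read. Figures were drawn with matplotlib 3.10.9 and promoters aligned with Biopython 1.88.

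Same-numbered arrays correlated in their deviations from the group means at -0.46 to 0.30 over 24 pairs, of which 7 were over 0.1. Arrays with different numbers were not set beside them, so a pairing was neither shown nor excluded. The main fit did not pair the animals. Besides 16 fits that leave out 1 array, 13 alternatives were run: quantile normalization, median centring, trend, robust and array-weight options, fits of 2 groups, a filter on dim rows, a threshold of 0.01, the mean of a gene's rows (the same here, as each member has 1), rows without annotation kept, a replicate block, array SD as a covariate, and the arrays fed 2, P2 4 and P3 3 left out.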

Additional observations from a re-analysis of the deposited data

Results flagged for a closer look

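In 7 of 116 groups of 4 arrays, 1 array stood apart from the other 3 by Dixon's test, where chance gives about 1 in 20. Array fed 2 was the low one in 4 of the 7. There Cyp2c11 read 11.88 with the other fed arrays at 12.34 to 12.40, Cyp2e1 read 11.87 with the others at 12.43 to 12.49, Cyp2r1 read 6.17 with the others at 6.82 to 6.90, and Cyp3a23-3a1 read 10.08 with the others at 10.93 to 11.09. Fed 2 was also the array with the smallest spread of values over rows (SD 2.16). Cyp1a1 read 4.13 on fed 1, with the other fed arrays at 3.85 to 3.86. Cyp4f1 read 11.32 on P3r2 4, with the others at 11.49 to 11.52. Cyp7a1 read 10.63 on P3 3, with the other P3 arrays at 12.49 to 12.76.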

How the results depend on the processing

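Of 145 values of named members, 78 were called, and 66 of these kept the call in all alternatives. Among these alternatives 0 named values that were called changed direction. Leaving out 1 array at a time gave 4 to 9 members higher and 3 to 5 lower in P2 against fed livers, 8 to 10 and 17 to 19 in P3 against fed livers, 5 to 7 and 17 to 20 in P3 against P2 livers, 13 to 18 and 7 to 8 in P3r2 against P3 livers, and 3 to 4 and 0 in P3r2 against fed livers. The F test called 27 to 30. Array weights gave 10 members higher in P2 against fed livers, and 5 higher and 3 lower in P3r2 against fed livers. Members lower in P3r2 against fed livers numbered 1 after quantile normalization, and 2 both with array SD as a covariate and without fed 2, P2 4 and P3 3. The cause of these changes was not tested. With a replicate block the counts were 6 higher and 4 lower in P2 against fed livers, 10 and 19 in P3 against fed livers, 6 and 19 in P3 against P2 livers, 14 and 7 in P3r2 against P3 livers, and 3 and 0 in P3r2 against fed livers. Cyp4b1 in P3 against P2 livers lost its call under the block (0.64, adjusted p = 0.056), and the numbers are not shown to pair the animals. Among named members, the calls lost on leaving out 1 array were those of Cyp17a1, Cyp7a1 and Por in P2 against fed livers, Cyp8b1, Cyp3a18, Cyp7a1 and Cyp3a23-3a1 in P3 against fed livers, and, in P3 against P2 livers, Cyp8b1, Cyp1a1 (adjusted p up to 0.12) and Cyp4b1 (up to 0.17). The background of dim rows and the ends of the signal range limit what the array can show.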
